A study of Mus musculus with 119 samples.

Results

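Genomic imprinting silences 1 of the parental copies of a gene, so that transcripts come from the maternal or the paternal allele. The 10 imprinted genes Dlk1, Peg3, Meg3, Rian, Mirg, Peg10, Ndn, Snrpn, Zdbf2 and Magel2 were followed, as a list chosen by name, through 5 brain regions of mice treated with THC or vehicle. All 10 were found among the 55291 genes of both count tables and passed the filter on low counts over all libraries. Each of 119 libraries held polyadenylated RNA from a punch of 1 region of 1 mouse, taken from the prefrontal cortex (PFC), a dorsal striatal punch (DMS), the nucleus accumbens (NAc), the amygdala (Amy) or the ventral tegmental area (VTA). Every combination of region, sex and treatment had 6 libraries except vehicle-treated VTA males, with 5. Treated mice received THC, the main psychoactive compound of cannabis, at 10 mg/kg by a daily intraperitoneal injection from postnatal day 28 to 48, and controls received vehicle over the same days. Behavior was tested from postnatal day 63 in treated mice and controls, and the labels give an age of 11 weeks and the strain C57BL/6J, whereas the study's methods give C57BL/6NCrl and a later collection. Titles call the striatal punch DMS, while the tissue label reads dorsolateral striatum. No label links the libraries that came from 1 mouse, so regions were compared as if independent.

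Libraries summed to between 3090998 and 77042133 expected counts, with regional medians from 18632073 to 23461892. Slc6a3, the dopamine transporter, had a median of 1240 CPM (reads scaled to equal library totals) in the VTA and at most 0.673 CPM in the other regions, and Slc17a7, a vesicular glutamate transporter, 1900 CPM (PFC) and 620 CPM (Amy). Ppp1r1b, a medium spiny neuron gene, had a median of 2980 CPM (DMS) and 1180 CPM (NAc). Counts of sex-linked genes in 2 Amy libraries went against their labels, FTL_344 (labelled female, THC) and FTL_356 (labelled male, THC), and values without them are given beside the Amy results of Magel2, Mirg, Ndn and Rian. PFC and DMS counts came from 1 table and NAc, Amy and VTA counts from another. For pairs of regions that cross the tables, region and table cannot be told apart. In punches, fewer cells of a type and less RNA per cell cannot be told apart either.

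Imprinted genes lie in clusters, where a differentially methylated control region sets which parental copy is read. In the Dlk1-Meg3 cluster the paternal chromosome expresses Dlk1, a membrane-bound Notch-like ligand, and the maternal chromosome the non-coding RNAs Meg3, Rian and Mirg. Ndn (necdin), Magel2 and Snrpn are paternally expressed genes of the region whose loss causes Prader-Willi syndrome in humans, and Peg3, Peg10 and Zdbf2 are paternally expressed as well. Several of these genes are known for roles in hypothalamic function, growth and maternal care.

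On GRCm38 with GENCODE M21, Dlk1 lies at chr12:109452823-109463336, Meg3 at chr12:109541001-109571726, Rian at chr12:109603940-109661716 and Mirg at chr12:109729764-109749460, each on the plus strand. The gap between the bodies of Dlk1 and Meg3 is 77.7 kb. Ndn, at chr7:62346569-62350262, is 26.7 kb from Magel2, at chr7:62377010-62381640, and Snrpn lies 2206.3 kb from Ndn on the minus strand at chr7:59982495-60140219. Peg3 is at chr7:6703892-6730431 on the minus strand, Peg10 at chr6:4747306-4760517 and Zdbf2 at chr1:63273265-63314576. Exons of Snrpn share 10% of their bases with Snurf and 27.3% with Gm38393 on the same strand, and exons of Meg3 share 6.79% with Gm26906 on the opposite strand. Expected counts were not whole in 118 of 119 libraries for Meg3, in 117 for Snrpn and in 15 for Rian, which marks reads divided among genes or copies, so the Meg3 and Snrpn levels are less certain than those of the other members. The remaining 7 members had whole counts in every library.

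The 250 bases before a RefSeq start are shown for Dlk1 and Meg3, neighbors whose levels ranged very differently among regions, and for Magel2, whose level ranged widely like that of Dlk1. They come from RefSeq on GRCm38.p6, are written 5′ to 3′ on the plus strand that each gene is read from, and have CpG pairs, the sites of DNA methylation, in capitals.
Dlk1, chr12:109452573-109452822: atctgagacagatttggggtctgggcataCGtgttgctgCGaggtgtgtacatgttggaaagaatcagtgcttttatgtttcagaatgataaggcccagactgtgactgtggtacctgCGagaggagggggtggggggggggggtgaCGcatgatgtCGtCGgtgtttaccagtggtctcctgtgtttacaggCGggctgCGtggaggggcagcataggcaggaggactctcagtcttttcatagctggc
Meg3, chr12:109540746-109540995: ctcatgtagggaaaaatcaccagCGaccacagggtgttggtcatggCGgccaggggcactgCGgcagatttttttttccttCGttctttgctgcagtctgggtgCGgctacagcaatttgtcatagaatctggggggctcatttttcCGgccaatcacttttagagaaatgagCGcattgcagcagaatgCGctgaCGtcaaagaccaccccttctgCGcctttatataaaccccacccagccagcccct
Magel2, chr7:62376729-62376978: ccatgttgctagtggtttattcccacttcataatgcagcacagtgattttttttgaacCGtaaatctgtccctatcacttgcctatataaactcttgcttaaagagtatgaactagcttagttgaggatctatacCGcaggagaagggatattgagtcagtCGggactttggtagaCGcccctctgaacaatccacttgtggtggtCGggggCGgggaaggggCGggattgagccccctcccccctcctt
These windows hold 8, 10 and 7 CpG pairs, beside a median of 6 over the 32841 promoters searched. Another Meg3 start in this set, with its window at chr12:109545148-109545397, is not shown and holds 0 CpG pairs. The core motif TGCCGC of ZFP57, a zinc finger protein that maintains imprints, was searched on both strands. It is present 1 time before the Meg3 start shown and 0 times before the other Meg3 start, Dlk1 and Magel2. It is in 8.68% of all promoters and in 2 of the 14 promoters that 9 of the members have in this set. The motif GCCATNTT (YY1), searched in the same way, is in 3.91% of all promoters and in 0 of the 14.

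Mirg is a host of microRNAs, short RNAs that repress target transcripts through their seed. Of 14 hairpins in its gene body, 4 lie whole within its exons in GENCODE M21. A mature RNA of each is shown (RefSeq, GRCm38.p6) with the seed, bases 2 to 8, in capitals.
mmu-miR-134-5p: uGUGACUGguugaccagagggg
mmu-miR-485-3p: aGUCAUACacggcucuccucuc
mmu-miR-377-3p: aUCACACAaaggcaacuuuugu
mmu-miR-410-3p: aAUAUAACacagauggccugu
Their seeds differ from each other. The libraries measured the host transcript, not the mature RNAs.

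Levels of the members by region are given as CPM after scaling by the trimmed mean of M values (TMM). Dlk1 had the widest range. It was almost silent in the PFC, at 0.767 ± 0.305 CPM (SD, n = 24), with 8 to 41 counts per library. The DMS held 11 ± 8.59 CPM (n = 24), the Amy 62.8 ± 10.8 CPM (n = 24), the NAc 143 ± 25.6 CPM (n = 24) and the VTA 426 ± 115 CPM (n = 23). The mean in the VTA was 555-fold that in the PFC. Ranges of neighboring regions in this order did not overlap from the DMS upward, with 1.65 to 40.3 CPM in the DMS, 46.8 to 89.4 CPM in the Amy, 106 to 204 CPM in the NAc and 221 to 720 CPM in the VTA. The highest PFC library, at 1.97 CPM, was above the lowest DMS library.

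**Figure D1:**
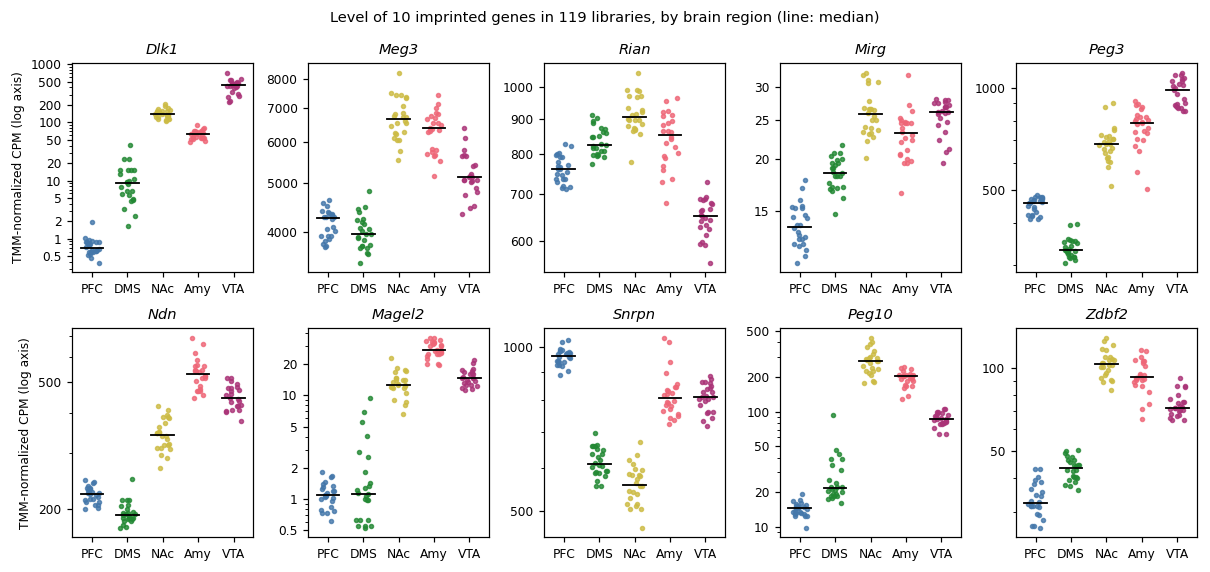
TMM-normalized CPM (log axis) of the 10 imprinted genes in each of 119 libraries, by region, with 1 point per library and a line at the median. Dlk1 runs from a median of 0.706 CPM in the PFC to 437 CPM in the VTA, whereas Rian stays between medians of 651 and 905 CPM.

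Magel2 and Peg10 also had wide ranges. Magel2, which encodes a MAGE family protein of ubiquitin ligase complexes, had means of 28.2 ± 4.96 CPM (Amy), 15.1 ± 2.79 (VTA), 13.3 ± 3.65 (NAc), 2.03 ± 2.28 (DMS) and 1.13 ± 0.315 CPM (PFC), a 25-fold range of means. Its SD in the DMS exceeded its mean there, with a median of 1.12 CPM and a highest library of 9.48 CPM. Peg10, a retrotransposon-derived gene, had means of 276.6 ± 70.4 CPM (NAc), 195 ± 29 (Amy), 86.2 ± 11.4 (VTA), 27.9 ± 16.4 (DMS) and 14.3 ± 1.94 CPM (PFC), a 19.3-fold range. Dlk1, Magel2 and Peg10 thus peaked in different regions, the VTA, Amy and NAc.

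The other 7 members ranged between 1.41-fold and 3.11-fold. Zdbf2, a zinc finger gene, had means of 104 ± 11.7 CPM (NAc), 93.9 ± 12.9 (Amy), 73.9 ± 7.41 (VTA), 43.3 ± 4.19 (DMS) and 33.6 ± 4.88 CPM (PFC). Peg3, a zinc finger transcription factor, was highest in the VTA at 973 ± 86.8 CPM, followed by the Amy at 770 ± 101, the NAc at 686 ± 84, the PFC at 451 ± 23.8 and the DMS at 337.4 ± 23.6 CPM. Ndn, a MAGE family protein of postmitotic neurons, was highest in the Amy at 534 ± 61.4 CPM, followed by the VTA at 451 ± 38.8 CPM, the NAc at 344.1 ± 39.8 CPM, the PFC at 223 ± 13.2 CPM and the DMS at 195 ± 15.8 CPM. These genes shared low levels in the PFC and DMS, and their highest region differed from gene to gene. PFC and DMS counts came from the same table, so in the shared low levels region and table cannot be told apart.

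Snrpn, which encodes a core protein of spliceosomal ribonucleoproteins, went the other way in the PFC but not in the DMS. It was highest in the PFC, at 960 ± 34 CPM. The other means were 823 ± 81.4 CPM (Amy), 809 ± 47.8 (VTA), 616 ± 37 (DMS) and 562 ± 47.5 CPM (NAc). Meg3 had means of 6702 ± 633 CPM (NAc), 6320 ± 581 (Amy), 5199 ± 510 (VTA), 4157 ± 266.2 (PFC) and 4000 ± 318.5 CPM (DMS). Rian, a host of small nucleolar RNAs, had 917 ± 58.6 CPM (NAc), 843 ± 74.4 (Amy), 837 ± 38.6 (DMS), 763 ± 34.1 (PFC) and 648 ± 40.4 CPM (VTA). Mirg had 26.1 ± 3.35 CPM (NAc), 25.5 ± 2.43 (VTA), 23.1 ± 3.19 (Amy), 18.5 ± 1.68 (DMS) and 13.9 ± 1.67 CPM (PFC). The VTA, where the paternally expressed Dlk1 was highest, was thus the lowest region of the maternally expressed Rian, but not of Meg3 or Mirg. Both had their highest mean in the NAc, and Mirg was nearly as high in the VTA. The counts do not separate the parental alleles.

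Divided by the length of the exons in GENCODE M21, levels can be set only roughly between genes. The length joins the exons of all annotated transcripts, 18.089 kb for Meg3, 18.234 kb for Rian, 7.292 kb for Mirg and 2.159 kb for Snrpn. The order of genes therefore depends on the annotation as well as on transcript levels. In the VTA, Snrpn had 374.8 ± 22.1 CPM per kb, Meg3 287.4 ± 28.2, Ndn 122 ± 10.5, Dlk1 75.3 ± 20.3, Peg3 73 ± 6.51, Rian 35.5 ± 2.22, Peg10 12.9 ± 1.71, Zdbf2 5.84 ± 0.585, Mirg 3.5 ± 0.333 and Magel2 3.26 ± 0.602 CPM per kb (SD, n = 23). In the PFC, Snrpn stood at 445 ± 15.7 and Meg3 at 230 ± 14.7 CPM per kb, while Magel2 had 0.244 ± 0.068 and Dlk1 0.136 ± 0.054 CPM per kb (n = 24). Along the maternally expressed RNAs of the Dlk1-Meg3 cluster, the level per kb in the PFC fell from Meg3 to 41.8 ± 1.87 for Rian and 1.91 ± 0.229 for Mirg. Per length, Dlk1 was thus the lowest of the 10 in the PFC and lay within its SD of Peg3 in the VTA.

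Pairs of regions were compared in 1 edgeR fit over the 119 libraries with sex and treatment as covariates, and calls needed a Benjamini-Hochberg adjusted p under 0.05 (FDR) plus a log2 difference of 1 or more in either direction. Against the PFC, 6 members were called higher in the VTA (beside 14.7% of all genes tested called higher in this pair), 5 in the Amy (7.83%), 4 in the NAc (9.82%) and 1, Dlk1, in the DMS (10.1%). Against the DMS, 6 were called higher in the Amy (10.6%), 5 in the VTA (15.2%) and 5 in the NAc (6.27%). In each of these 7 pairs 0 members were called lower. All of them except DMS minus PFC cross the tables, so region and table cannot be told apart there. Among the NAc, Amy and VTA, 1 member was called higher and 1 lower in each of Amy minus NAc (8.55% of genes called in either direction), VTA minus NAc (22.5%) and VTA minus Amy (17.4%). The median log2 difference of the 10 members was 1.06 for VTA minus PFC and 1.1 for Amy minus DMS, beside 0.023 and -0.046 over all genes tested.

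By gene, Dlk1 was called in 10 of 10 pairs, Peg10 in 8, Magel2 in 7, Zdbf2 in 5, and Ndn and Peg3 in 4 each. Meg3, Rian, Mirg and Snrpn were called in 0 pairs at this fold. Dlk1 was 9.12 higher in the VTA than in the PFC on the log2 scale (SE 0.21, edgeR adjusted p = 3.19e-71) and 3.84 higher in the DMS than in the PFC (SE 0.23, adjusted p = 3.29e-32), the latter within 1 table. Its neighbors in the order of levels all differed, and the smallest step was 1.23 from the Amy to the NAc (SE 0.13, edgeR adjusted p = 1.73e-15). Magel2 was 1.04 higher in the Amy than in the NAc (SE 0.14, edgeR adjusted p = 2.53e-11), but did not differ between the VTA and NAc beyond its spread (0.18, SE 0.14, adjusted p = 0.233).

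Peg10 was lower in the VTA than in the NAc, at a log2 difference of -1.7 (SE 0.11, edgeR adjusted p = 2.5e-30), the opposite direction to Dlk1, which was 1.55 higher there (SE 0.13, adjusted p = 1.52e-21). Other neighbors that did not differ beyond their spread were PFC and DMS for Meg3 (log2 difference 0.03, SE 0.04, edgeR adjusted p = 0.488), Amy and DMS for Rian (adjusted p = 0.0767), NAc and VTA for Mirg (0.06, SE 0.05, adjusted p = 0.189) and Amy and VTA for Snrpn (0, SE 0.03, adjusted p = 0.908). Within vehicle libraries alone 3 members were called higher in the DMS than in the PFC, as Peg10 stood at 1.11 (SE 0.19) and Magel2 at 1.13 (SE 0.34) instead of 0.97 (SE 0.11) and 0.85 (SE 0.22). The share of all genes called in that fit is not given here, so the 3 members cannot be set beside it. The Magel2 difference between DMS and PFC dropped to 0.36 (SE 0.19, adjusted p = 0.0704) without the DMS libraries FTL_285 and FTL_301 and the Amy library FTL_338.

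From a list of 39 further genes reported as imprinted in some mouse tissue, 38 were found and 36 tested between regions. Whether they are imprinted in these regions was not tested. In VTA minus PFC 12 were called higher and 4 lower, beside 14.7% and 10.9% of all genes, and in Amy minus DMS 16 were called higher and 1 lower, beside 10.6% and 7% of all genes. The order of regions differed from gene to gene. Rtl1, a retrotransposon-derived gene read antisense within the Dlk1-Meg3 cluster (chr12:109589193-109600330, minus strand), had means of 0.0544 CPM (PFC), 1.27 (DMS), 4.82 (Amy), 6.98 (NAc) and 11.2 CPM (VTA), the same order as Dlk1. Dio3, at the far end of that cluster, did not follow that order, with means of 6.03 CPM (NAc), 5.46 (Amy), 1.05 (PFC), 0.581 (DMS) and 0.212 CPM (VTA). Usp29, beside Peg3, had means of 55.3 CPM (PFC), 57.1 (DMS), 135 (NAc), 151 (VTA) and 164 CPM (Amy). Calcr, the calcitonin receptor near Peg10 on chromosome 6, had means of 9.56 CPM (NAc), 8.52 (Amy), 1.01 (VTA) and 0.353 CPM (DMS), and a count of 0 in every PFC library.

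The genes whose pattern over the 20 groups was most like each member were ranked by Pearson's r between group means of log2 CPM, among 18932 genes that passed the filter. Of the 30 genes so named (3 per member), 5 were imprinted genes of these lists, of which 47 were among the genes ranked. Closest to Dlk1 were Insyn2b (r = 0.992), Amotl1 (0.991) and the imprinted Rtl1 (0.986). Closest to Magel2 were Arhgap36 (0.991), Fhl1 (0.991) and the imprinted Usp29 (0.989), and closest to Peg10 were Calcr (0.991), Zdbf2 (0.985) and Kdm6b (0.984). Zdbf2 was nearest to Vac14 (0.989), Peg10 (0.985) and Kdm6b (0.978), and Ndn to Gabrq (0.993), Inpp4b (0.991) and Gprasp1 (0.99). Peg3 was nearest to Ankrd55 (0.989), Khnyn (0.986) and B630019K06Rik (0.986), and Snrpn to Gm9954 (0.985), Kctd2 (0.984) and Hsp90aa1 (0.982). Meg3 was nearest to Iqce (0.979), Pnmal2 (0.974) and 1700010I14Rik (0.971), Rian to Uhrf2 (0.978), Gm12940 (0.977) and Slc39a2 (0.968), and Mirg to Gm30655 (0.973), Insyn2b (0.968) and Stat5b (0.967). These r values are over 20 group means that share regions, mice and tables, and are a description.

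THC was compared with vehicle within each region and sex to ask whether adolescent exposure left a change in these genes. Calls needed an FDR under 0.05 plus a log2 fold change of 0.4 or more in either direction. By edgeR, 0 of 10 members were called in each of the 10 comparisons, and DESeq2 also called 0 in each. At an unadjusted p under 0.05 there were 16 member values in all, of which 14 were lower and 2 higher after THC, beside 8.15% of all gene values over the 10 comparisons together (4.09% lower, 4.06% higher). Of the 14 lower values, 8 came from the female Amy and male NAc, where larger shares of all genes passed. Over all genes, 1.57% were called in the female Amy, 0.0127% in the female DMS and 0% in the other 8 comparisons. Fold changes of the members ran from -0.9 to 0.54 on the log2 scale, both ends being low-count genes of the female DMS, Magel2 and Dlk1.

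**Figure D2:**
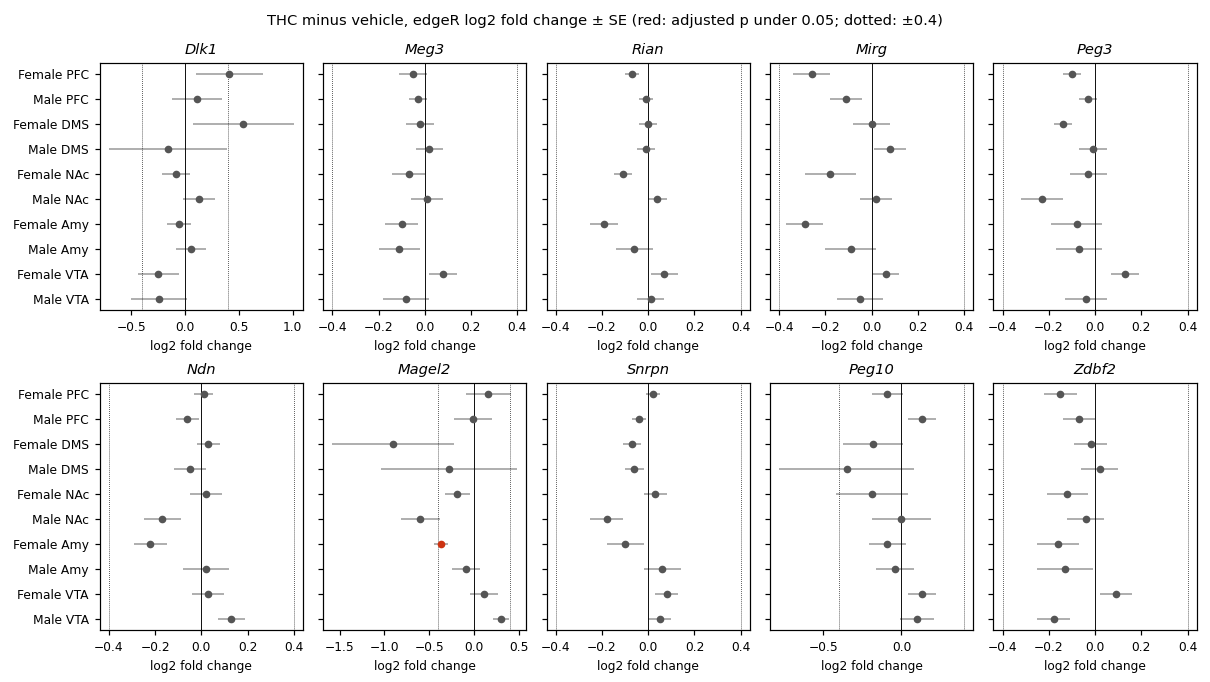
Log2 fold change of THC minus vehicle (x axis) with its standard error for each of the 10 genes in the 10 comparisons (y axis), by edgeR. Magel2 in the female Amy, at -0.37, is the 1 point with an adjusted p under 0.05, and dotted lines mark a fold change of 0.4 in either direction.

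In the female Amy, 4 of 10 members had an unadjusted p under 0.05 (beside 21.9% of all genes), and each of the 10 had a fold change below 0, from -0.37 to -0.06 with a median of -0.13, beside a median of -0.006 over the 17003 genes tested. Magel2 had 27.3 to 35.9 CPM in the 6 vehicle libraries (median 31.2) and 20.3 to 26.4 CPM in the 6 THC libraries (median 25.2). The groups did not overlap, as in 1.28% of all genes tested that were lower in every THC library. Magel2 fell by 0.37 on the log2 scale (SE 0.08, edgeR adjusted p = 0.0258), below the fold required for a call, and it was 1 of the 2.72% of genes that passed the FDR. Without FTL_344 its difference was -0.38 (SE 0.08, adjusted p = 0.0491). Its adjusted p exceeded 0.05 in 5 other fits, reaching 0.115 with the 4 Amy groups in 1 fit and 0.0697 without vehicle library FTL_335, and it was 0.0613, 0.0572 and 0.0612 without THC libraries FTL_339, FTL_340 and FTL_342.

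Mirg had 22.6 to 32.1 CPM in female Amy vehicle libraries (median 24.6) and 19.6 to 23 CPM after THC (median 20.6), with a log2 difference of -0.29 (SE 0.08, edgeR adjusted p = 0.0779). Ndn had 522 to 690 CPM (median 548) and 469 to 538 CPM (median 480), at -0.22 (SE 0.07, edgeR adjusted p = 0.0941). Rian had 861 to 965 CPM (median 909) and 737 to 920 CPM (median 793), at -0.19 (SE 0.06, edgeR adjusted p = 0.0961). Without FTL_344 the differences were -0.28 for Mirg, -0.21 for Ndn and -0.18 for Rian, with an edgeR adjusted p of 0.147, 0.183 and 0.178. For each of these 3 genes, all libraries included, 5 of 6 THC libraries lay below every vehicle library and the ranges overlapped. The vehicle library FTL_338 held the highest Mirg, Ndn, Rian and Snrpn and the lowest values of the other 6 members in its group. Without it, 4 members passed the FDR, Magel2 was called at -0.41 (SE 0.07, edgeR adjusted p = 0.00452), Mirg stood at -0.2 (SE 0.05, adjusted p = 0.0339) and Ndn at -0.16 (SE 0.04, adjusted p = 0.0466). The share of all genes that passed in that fit is not given here, so the 4 members cannot be set beside it.

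**Figure D3:**
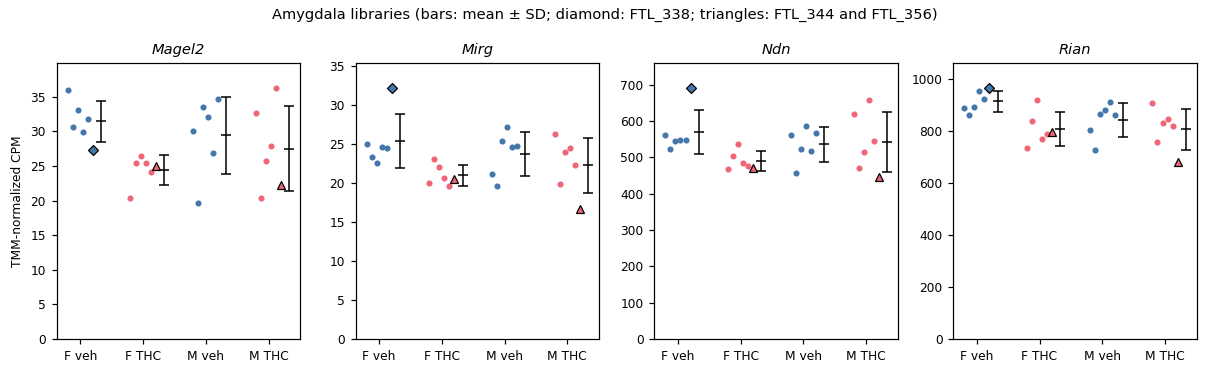
TMM-normalized CPM of Magel2, Mirg, Ndn and Rian in the 24 Amy libraries by sex and treatment, with bars for the mean and SD of each group. Female vehicle and THC libraries are apart for Magel2 (27.3 to 35.9 against 20.3 to 26.4 CPM), and FTL_338 (diamond) is the highest vehicle library for Mirg and Ndn.

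Markers of cell types moved with treatment in the same female Amy libraries. The summed level of 16 markers of hypothalamus and medial amygdala was 338.6 to 455 CPM in vehicle and 219.8 to 356.6 CPM in THC libraries. By edgeR 0 of the 10 tested were called (beside 1.57% of all genes), and 8 had an unadjusted p under 0.05, each lower. Of the 17003 genes tested, 1894 were lower at that p. The sum of 10 markers of cortical and basolateral projection neurons was 662 to 943 CPM in vehicle and 978 to 1340 CPM in THC libraries, without overlap. Of all single genes tested, 2.86% were higher in every THC library. Of the 10 markers 4 were called higher, beside 186 of the 17003 genes tested. The sum of 6 choroid plexus markers was 893, 458 and 1150 CPM in vehicle libraries FTL_335, FTL_337 and FTL_338 and 3600 and 2250 CPM in THC libraries FTL_343 and FTL_344, against 17.4 to 23.2 CPM in the other 7. Otp, a defining gene of the hypothalamus and medial amygdala list, was above 0 in each Amy library, with a median of 3.41 CPM. Over the 24 Amy libraries, after subtraction of group means, Magel2 followed the hypothalamus and medial amygdala sum with r = 0.91, Ndn with 0.7, Rian with 0.67 and Mirg with 0.6, which share libraries and scaling. Without FTL_344 and FTL_356 these were 0.91, 0.73, 0.71 and 0.63 over 22 libraries, and without FTL_344 the ranges of both sums in female THC libraries stayed 219.8 to 356.6 and 978 to 1340 CPM. Over all 24 libraries the projection neuron sum had r of -0.27 to -0.2 with Magel2, Ndn, Rian and Mirg. A sum of 10 medium spiny neuron markers had r of -0.69 with Magel2, -0.56 with Ndn, -0.43 with Rian and -0.4 with Mirg. It was 557 to 1160 CPM in female vehicle and 927 to 1520 CPM in female THC libraries, which overlapped. Library totals overlapped, at 13018420 to 46044478 counts in vehicle and 20341366 to 76111373 counts in THC libraries. The part of markers and depth in the result was not tested.

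Males did not show the Magel2 difference at this size. In the male Amy, vehicle libraries held 19.6 to 34.6 CPM of Magel2 (median 31) and THC libraries 20.3 to 36.2 CPM (median 26.8), a log2 difference of -0.09 (SE 0.16, edgeR adjusted p = 1). The difference between the sexes in the effect was 0.28 (SE 0.18, adjusted p = 0.441) and was not shown. Without FTL_356 the male difference was -0.03 (SE 0.17, edgeR adjusted p = 0.998), and without both doubted libraries the difference between the sexes was 0.34 (SE 0.19, adjusted p = 0.345). Over both sexes, Magel2 was at -0.24 (SE 0.09), Mirg at -0.19 (SE 0.07) and Rian at -0.12 (SE 0.05), each with an edgeR adjusted p of 0.677. Without FTL_344 and FTL_356 these were -0.21, -0.15 and -0.1 with an adjusted p of 0.99.

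In the male NAc, 4 members had an unadjusted p under 0.05 (beside 16.7% of all genes), each lower after THC and none past the FDR. Magel2 had 11.7 to 23.1 CPM in vehicle (median 16.1) and 6.55 to 14.7 CPM in THC libraries (median 10.9), with a log2 difference of -0.6 (SE 0.22, edgeR adjusted p = 0.22). Peg3 had 664 to 900 CPM (median 727) and 513 to 715 CPM (median 637), at -0.23 (SE 0.09, edgeR adjusted p = 0.22). Snrpn was at -0.18 (SE 0.07, edgeR adjusted p = 0.216) and Ndn at -0.17 (SE 0.08, adjusted p = 0.295). The ranges of vehicle and THC libraries overlapped for each of the 4. In these libraries the sum of 10 medium spiny neuron markers was 3120 to 4630 CPM in vehicle and 4050 to 6370 CPM in THC, and its r over the 24 NAc libraries was -0.86 with Magel2, -0.82 with Peg3, -0.77 with Ndn and -0.43 with Snrpn. The part of these markers in the differences was not tested.

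In the female PFC, 3 members had an unadjusted p under 0.05 (beside 5.84% of all genes). Mirg had 14.5 to 17.8 CPM in vehicle (median 15.4) and 11.6 to 17 CPM in THC libraries (median 12.4), at -0.26 (SE 0.08, edgeR adjusted p = 0.786), with 5 of 6 THC libraries below every vehicle library. Peg3 in the same libraries was at -0.1 (SE 0.04, edgeR adjusted p = 0.786) and Rian at -0.07 (SE 0.03, adjusted p = 0.84). Peg3 was at -0.14 in the female DMS (SE 0.04, edgeR adjusted p = 0.315), with 333.1 to 394.5 CPM in vehicle and 304.6 to 334.2 CPM in THC libraries. Rian was at -0.11 in the female NAc (SE 0.04, edgeR adjusted p = 0.991), with 969 to 1050 CPM in vehicle and 886 to 992 CPM in THC libraries. In the VTA 2 of 3 such values were higher after THC, with Peg3 at 0.13 in females (SE 0.06, edgeR adjusted p = 0.521), and Magel2 at 0.3 (SE 0.09) and Zdbf2 at -0.18 (SE 0.07) in males, both with an adjusted p of 0.819. The male vehicle library FTL_371 held the highest Magel2 of its group, 16.4 CPM, from 3090998 counts. The rest of its group had 18629568 to 60022122 counts. The study's methods report the removal of a male VTA outlier that they do not name. Values without FTL_371 are not given here. In the male PFC, male DMS and male Amy, no member had an unadjusted p under 0.05, and the smallest were those of Mirg at -0.11 (SE 0.07), Snrpn at -0.06 (SE 0.04) and Meg3 at -0.11 (SE 0.09), each with an edgeR adjusted p of 1.

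Tested over both sexes with sex as a covariate, 0 members passed the FDR in any region by edgeR (0% of all genes called in each of the 5 regions), with 8 values at an unadjusted p under 0.05 (beside 7.45% of all gene values over the 5 regions). Besides those of the Amy, these were Mirg at -0.19 (SE 0.06, edgeR adjusted p = 0.917) and Peg3 at -0.07 (SE 0.03) in the PFC, Snrpn at -0.06 (SE 0.03) in the DMS, and Magel2 at -0.39 (SE 0.14, edgeR adjusted p = 0.405) in the NAc and 0.2 (SE 0.1, adjusted p = 0.477) in the VTA. Magel2 thus had fold changes of opposite sign in the NAc and VTA, neither of which passed the FDR. In the VTA the sum of hypothalamus and medial amygdala markers had an r of 0.86 with Magel2 over 23 libraries. In males it was 126 to 142 CPM in 4 of the 5 vehicle libraries and 314.8 CPM in the fifth, against 148 to 206.7 CPM in THC libraries, and in females it was 143 to 265.7 CPM and 137 to 307.9 CPM. The part of these markers in the Magel2 difference was not tested. For the interaction of sex and treatment, 0 members passed the FDR (0.0059% of genes called for the Amy, 0% elsewhere), with the lowest unadjusted p for Zdbf2 in the VTA at -0.27 (SE 0.1, edgeR adjusted p = 0.78), and for Rian at 0.15 (SE 0.06, adjusted p = 0.385) and Snrpn at -0.21 (SE 0.09, adjusted p = 0.398) in the NAc.

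Among the other imprinted genes, 3 of 35 tested were called in the female Amy, each lower after THC (beside 0.476% of all genes called lower), and 0 in the 9 other comparisons by edgeR. At an unadjusted p under 0.05, 7 of the 35 were lower and 5 higher (21.9% of all genes in either direction). Nap1l5, a nucleosome assembly protein family gene (chr6:58905233-58907076), had 595 to 810 CPM in vehicle and 407 to 556 CPM in THC libraries without overlap and fell by 0.52 on the log2 scale (SE 0.09, edgeR adjusted p = 0.0127). The THC libraries lay above every vehicle library for 2 of these genes, as in 2.86% of all genes, Mest at 0.4 (SE 0.11, edgeR adjusted p = 0.0643) and Ppp1r9a at 0.36 (SE 0.14, adjusted p = 0.157). Plagl1, a zinc finger transcription factor (chr10:13060504-13131694), was at -0.6 (SE 0.15, edgeR adjusted p = 0.0443) and Calcr (chr6:3685680-3764714) at -1.09 (SE 0.27, adjusted p = 0.0466). Calls of Plagl1 and Calcr were lost without 9 of the 12 single libraries, whereas Nap1l5 passed the FDR without each of the 12. The median of the 35 genes was -0.07, and the log2 fold changes ran from -1.09 to 0.86. In the male NAc, Snurf stood at -0.41 (SE 0.1, edgeR adjusted p = 0.21) and Zim1 at -0.69 (SE 0.22, adjusted p = 0.213). All 216 exon bases of Snurf are shared with exons of Snrpn, so Snurf is not a separate result from Snrpn.

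Between the sexes, with treatment as a covariate, 0 members were called by edgeR, beside 0.24% (PFC), 2.64% (DMS), 0.243% (NAc), 0.012% (Amy) and 0.109% (VTA) of all genes. The Amy fit and its share include FTL_344 and FTL_356, whose counts went against their sex labels, so it is not a clean comparison of the sexes. Without both libraries no member was called in the Amy. Rian had the smallest p there, at -0.04 (SE 0.05, edgeR adjusted p = 0.968). At an unadjusted p under 0.05 there were 11 member values (beside 14.7% of all gene values over the 5 regions), and 3 passed the FDR below the fold required, 1 each where 1.86% (PFC), 11.1% (DMS) and 2.27% (NAc) of genes did so. Zdbf2 was lower in the male PFC, with 26.4 to 34.6 CPM in 12 males and 31.6 to 43.1 CPM in 12 females, a log2 difference of male minus female of -0.28 (SE 0.05, edgeR adjusted p = 0.0055). Rian was lower in the male NAc, with 779 to 926 CPM in males and 886 to 1050 CPM in females (-0.12, SE 0.03, edgeR adjusted p = 0.0354). Snrpn was lower in the male DMS, at -0.09 (SE 0.03, edgeR adjusted p = 0.028), with 556 to 648 CPM in males and 580 to 695 CPM in females. The ranges of the sexes overlapped in each case. Across regions the 3 differences were in 3 different genes, and whether they differ among regions was not tested.

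The largest differences between the sexes were those of Dlk1, Magel2 and Peg10 in the DMS, each higher in males. Magel2 was at 0.88 (SE 0.52, edgeR adjusted p = 0.275), whereas Dlk1 and Peg10 fell just outside the FDR. Dlk1 had 4.61 to 40.3 CPM in males and 1.65 to 15.5 CPM in females, a log2 difference of 1.14 (SE 0.37, edgeR adjusted p = 0.0506). Peg10 had 18.6 to 92.8 CPM in males and 16.2 to 38.6 CPM in females, at 0.71 (SE 0.24, edgeR adjusted p = 0.0545). DESeq2 called both, at adjusted p of 0.0175 and 0.0203. Without the libraries FTL_285 and FTL_301, the edgeR fit called both, Dlk1 at 1.13 (SE 0.29, adjusted p = 0.0174) and Peg10 at 0.6 (SE 0.16, adjusted p = 0.02). These libraries were left out after they were seen to stand apart in Dlk1 and Peg10, so that fit is no independent support. The main edgeR fit called 2.64% of all genes, and the shares in the alternative fits are not given here. Rtl1 was called higher in males at 0.9 (SE 0.16, edgeR adjusted p = 0.00133), with 0.984 to 2.24 CPM against 0.44 to 1.28 CPM, the 1 gene called of 32 other imprinted genes tested (beside 2.18% of all genes called higher in males). In these libraries the sum of medium spiny neuron markers had medians of 11170 and 10560 CPM in female and of 9674 and 9585 CPM in male vehicle and THC groups, and its part in the difference was not tested.

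Within the DMS, Dlk1, Magel2 and Peg10 varied together from library to library. FTL_301, a male vehicle library, held 40.3 CPM of Dlk1, 9.48 CPM of Magel2 and 92.8 CPM of Peg10, against 4.77 to 15.4 CPM of Dlk1 and 18.6 to 43.1 CPM of Peg10 in the rest of its group. FTL_285, a female vehicle library, held 15.5, 6.93 and 38.6 CPM of these genes, against at most 5.8, 1.22 and 22.2 CPM in the rest of its group. Its sum of cortical and basolateral projection neuron markers was 320.95 CPM and its sum of choroid plexus markers 85.8 CPM, against 14.5 to 16.7 CPM and 13.4 to 18.6 CPM in the rest of its group. After subtraction of group means, r over the 24 DMS libraries was 0.87 for Magel2 and Peg10, 0.78 for Dlk1 and Peg10 and 0.72 for Dlk1 and Magel2. Without FTL_285 and FTL_301 these were 0.78, 0.64 and 0.48. The sum of medium spiny neuron markers was lowest in FTL_301, at 6943 CPM, and its r was -0.91 with Peg10, -0.87 with Magel2 and -0.84 with Dlk1, or -0.81, -0.75 and -0.73 without both libraries. The hypothalamus and medial amygdala sum went the other way, with r of 0.94, 0.92 and 0.79 for Peg10, Magel2 and Dlk1, and it was 80.1 CPM in FTL_301. The sum of astrocyte markers moved likewise, with r of 0.91, 0.9 and 0.72. The part of these markers was not tested. Of the defining markers of the hypothalamus and medial amygdala list, Sim1 was at 0 in 22 of the 24 DMS libraries and Otp in 9. Nkx2-1 was above 0 in each DMS library, with a median of 6.52 CPM, beside 4.86 CPM in the Amy.

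**Figure D4:**
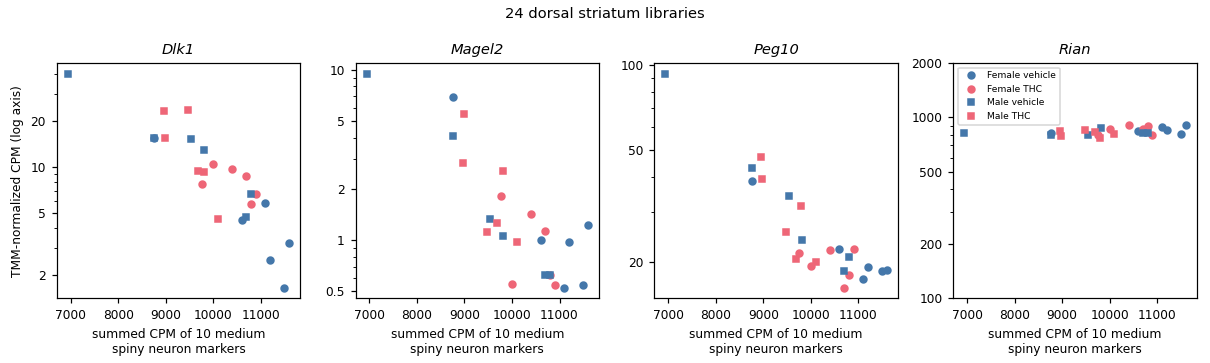
TMM-normalized CPM (log axis) of Dlk1, Magel2, Peg10 and Rian in the 24 DMS libraries against the summed CPM of 10 medium spiny neuron markers, by sex and treatment. Dlk1, Magel2 and Peg10 are highest in FTL_301, the library with the lowest marker sum at 6943 CPM, while Rian stays between 774 and 913 CPM.

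In the VTA, Dlk1 followed the markers of dopaminergic neurons. Its level ran from 221 to 720 CPM, with 413 to 484 CPM in female vehicle libraries and 221 to 538 CPM in female THC libraries, which overlapped (log2 differences in both sexes were below 0 and did not pass the FDR). After subtraction of group means, its r with the sum of 10 dopaminergic markers was 0.88 over 23 libraries, that of Peg10 was 0.63 and that of Magel2 was -0.47. The other 7 members lay between -0.18 and 0.32. With the sum of medium spiny neuron markers, Dlk1 had nearly the same r, 0.87, in these libraries. These r values share the library, its depth and the punch.

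Across the 5 regions, pairs of members differed in how steadily they varied together. Dlk1 and Peg10 had r between 0.36 and 0.85, Meg3 and Peg3 between 0.48 and 0.87, Peg3 and Zdbf2 between 0.48 and 0.81, and Meg3 and Mirg between 0.39 and 0.81, each above 0 in all 5 regions. The neighbors Ndn and Magel2 had r between 0.26 and 0.7. Dlk1 and Meg3, neighbors read from opposite parental chromosomes, had r from -0.29 (PFC) to 0.62 (DMS), and the latter was 0.38 without FTL_285 and FTL_301. Snrpn had r below 0 with Meg3 (-0.63 to -0.09) and with Zdbf2 (-0.73 to -0.12) in each region, but without FTL_338 its r with Meg3 in the Amy was 0.06, and without FTL_285 and FTL_301 that with Zdbf2 in the DMS was -0.11. Over all 119 libraries Dlk1 and Peg10 had the highest r of the 45 pairs, at 0.7. Without FTL_285, FTL_301 and FTL_338 it was 0.62, below Meg3 and Mirg (0.65) and Meg3 and Peg3 (0.64).

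**Figure D5:**
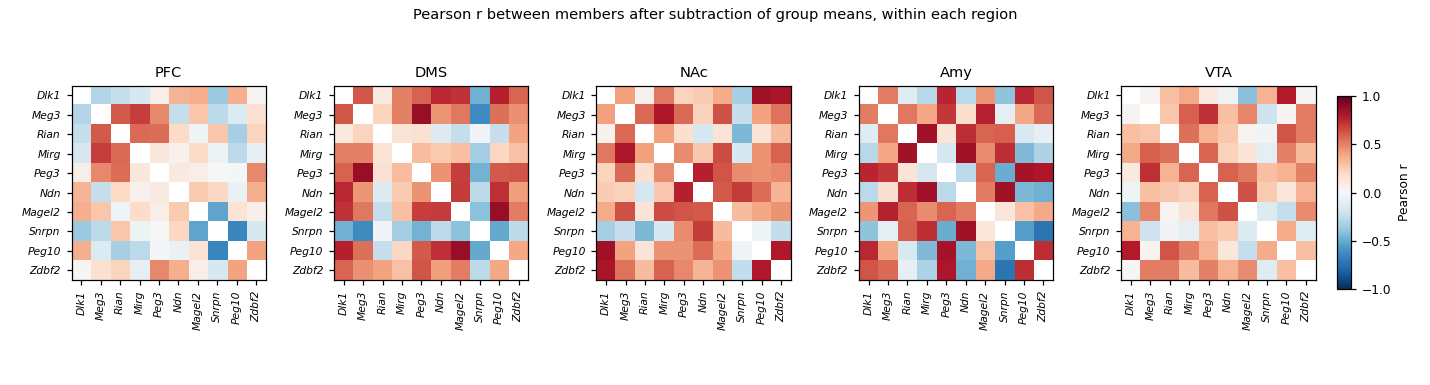
Pearson's r between each pair of the 10 genes within each region, on log2 CPM after subtraction of group means, from blue (-1) to red (1), over 24 libraries each and 23 in the VTA. Dlk1 and Peg10 are above 0 in all 5 panels, and in the Amy panel r is high among Rian, Mirg, Ndn and Snrpn (0.6 to 0.85) and among Dlk1, Peg3, Peg10 and Zdbf2 (0.63 to 0.83).

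In the Amy, 2 sets of members were described after their r values were seen. Rian, Mirg, Ndn and Snrpn formed 1 set, with r of 0.84 for Rian and Mirg, 0.84 for Mirg and Ndn and 0.85 for Ndn and Snrpn. Dlk1, Peg3, Peg10 and Zdbf2 formed the other, with r of 0.83 for Peg3 and Peg10, 0.81 for Peg3 and Zdbf2 and 0.76 for Dlk1 and Peg3. Without FTL_338 these were 0.87, 0.8 and 0.82 in the first set and 0.73, 0.72 and 0.75 in the second. The 16 pairs between the sets had r from -0.73 (Snrpn and Zdbf2) to 0.14 (Rian and Peg3), with a median of -0.3 and 15 below 0. Without FTL_338 they ran from -0.62 to 0.31, with a median of -0.16 and 12 below 0, so that the negative r between the sets rested in part on that library. In the NAc the highest r were those of Dlk1 and Peg10 (0.85), Dlk1 and Zdbf2 (0.82), Meg3 and Mirg (0.81) and Peg10 and Zdbf2 (0.8). The PFC, with the lowest levels of Dlk1 and Magel2, had a median r of 0.07 over the 45 pairs, against 0.3 to 0.41 in the other regions.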

How the data were processed

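Per the labels and the study's methods, the authors selected polyadenylated RNA, made directional libraries, read them as pairs of 100 bp, trimmed them with cutadapt 2.9, aligned them to mm10 with STAR 2.7.3a and quantified genes with RSEM 1.3.1. The deposited values are expected counts per gene symbol, with no normalization, in 2 tables. The annotation used for counting is not given in the sources used here.

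Expected counts were rounded to whole numbers. Levels are CPM with TMM scaling over all libraries. Tests used edgeR 4.0.16 (R 4.3.3; filterByExpr, TMM, robust quasi-likelihood F test, Benjamini-Hochberg over all genes tested). Comparisons of THC used only the libraries of that region and sex. DESeq2 1.42.0, DESeq2 size factors, no filter, other sample sets and single libraries left out were alternatives. Scripts were tested on simulated data. Fold changes with errors are given for members with an unadjusted p under 0.05 and for the smallest p of a comparison, and other imprinted genes where called or smallest in p. Covariation used log2 CPM (prior count 2) after subtraction of group means. Members, lists and tests were chosen with earlier results of these data known. Nothing in the labels ties libraries of 1 mouse together, and p-values measure the spread between libraries.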

Additional observations from a re-analysis of the deposited data

Results flagged for a closer look

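In each group of 6 or 5 libraries the gap between the highest or lowest library and the next one was set against the range of the group (Dixon's test). Of 200 combinations of gene and group, 19 had a library standing apart, in 10 libraries. Chance gives about 1 in 20 groups, or 10 here.

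The female Amy vehicle library FTL_338 stood apart in 6 genes. It held 32.1 CPM of Mirg (22.6 to 25 in the others of its group), 690 CPM of Ndn (522 to 561) and 1040 CPM of Snrpn (755 to 857), and less of Peg3 (504 CPM against 805 to 896), Peg10 (128 against 197 to 239) and Zdbf2 (71 against 104 to 110).

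In the DMS, FTL_285 stood apart with 15.5 CPM of Dlk1 (1.65 to 5.8 in the others), 6.93 CPM of Magel2 (0.527 to 1.22) and 38.6 CPM of Peg10 (17.4 to 22.2). FTL_301 stood apart with 40.3 CPM of Dlk1 (4.77 to 15.4) and 92.8 CPM of Peg10 (18.6 to 43.1).

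The female Amy THC library FTL_339 held 20.3 CPM of Magel2 (24.1 to 26.4) and 82.1 CPM of Zdbf2 (90.5 to 94.3). Rian stood apart at 873 CPM in FTL_300 (797 to 824, male DMS vehicle), 1050 CPM in FTL_312 (969 to 990, female NAc vehicle) and 779 CPM in FTL_323 (868 to 898, male NAc vehicle). In the female PFC after THC, Dlk1 was 1.97 CPM in FTL_272 (0.597 to 1.03) and Mirg 17 CPM in FTL_269 (11.6 to 12.8). Zdbf2 was 121 CPM in FTL_317 (94.8 to 103, female NAc THC).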

How the results depend on the processing

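Of 600 alternative values for the 100 region differences, 596 kept their direction. The 4 that turned were below the threshold in both fits, Magel2 for VTA minus NAc at -0.11 in vehicle libraries only, and Rian for Amy minus DMS at 0.02 with no filter, 0.02 in vehicle libraries only and 0.03 without FTL_344 and FTL_356. In vehicle libraries only, members called numbered 1 for Amy minus NAc and 3 for DMS minus PFC. The shares of all genes called in that fit are not given here. In the female Amy, members called after THC ranged from 0 to 1 as single libraries were left out (1 without FTL_338 or FTL_341), and members past the FDR from 0 to 4 (4 without FTL_338). These were 0 with the 4 groups in one fit and 4 with DESeq2. Other imprinted genes called there ranged from 1 to 3 as single libraries were left out, and were 1 with the 4 groups in one fit, 5 with DESeq2 and 1 with no filter. Between the sexes in the DMS, members called were 2 with DESeq2 and 2 without FTL_285 and FTL_301, members past the FDR 3, 3 and, with no filter, 0, and other imprinted genes called 2 and 2. DESeq2 gave 2 members past the FDR between the sexes for the PFC and called 1 other imprinted gene for the Amy. Over all genes, the 1.57% called in the female Amy became 544 genes with DESeq2, 126 with the 4 groups in one fit and 129, 60, 58, 74, 56 and 159 without FTL_333, FTL_335, FTL_339, FTL_340, FTL_342 and FTL_344. The numbers without FTL_338 and FTL_341, where a member was called, are not given here. DESeq2 called 24 in place of 2 genes in the female DMS, 65 in place of 40 between the sexes in the NAc, 34 in place of 18 in the VTA and 13 in place of 2 in the Amy. The cause of these changes was not tested. Alternatives without FTL_285 and FTL_301 were chosen after seeing the data.

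No paired analysis was possible because the library numbers are unique to each library, so the groups share none, and no label links the libraries of 1 mouse. Dlk1 and Magel2 rest on few reads in the PFC, 8 to 41 and 13 to 42 per library.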
